A study of Homo sapiens with 6 samples.

Results

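The chemokine genes of endometrial carcinoma cells were examined as a set of 10, named by symbol: CXCL1, CXCL2, CXCL3, CXCL5, IL8 (now CXCL8), CXCL16, CCL2, CCL20, CCL28 and CX3CL1. All 10 symbols were found among the 23228 genes of the count tables. The cells were RL95-2, an established line from a human endometrial carcinoma. In each of the 6 libraries they had been kept for 24 h without serum. The 3 control libraries came from cells in equal volumes of RPMI and DMEM, and the 3 ADP-CM libraries from cells in equal volumes of RPMI and ADP-CM, a DMEM conditioned by mature adipocytes from human visceral fat. The groups therefore differ in every product that adipocytes released into the DMEM and in whatever they took from it, and these cannot be told apart. One cell line was studied, and the labels do not state whether libraries of a group came from separate cultures, so the p-values below measure the spread between these libraries, which may be technical. Stranded poly(A) libraries were read as single reads of 50 bp, and between 16262614 and 18363033 reads per library fell on genes, fewer in each control than in each ADP-CM library. Reads on no gene made up 10.2 to 10.3% in control and 11.5 to 11.6% in ADP-CM, and the part of this in the results was not tested. Of the members, 7 had enough reads to be tested and 3 (CXCL5, CCL28 and CX3CL1) did not.

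Chemokines are small secreted proteins that bind receptors on leukocytes and draw them along a gradient. CXCL1, CXCL2, CXCL3, CXCL5 and IL8 carry the glutamate-leucine-arginine (ELR) motif before their first cysteines, act through CXCR1 and CXCR2, and attract neutrophils. CCL2 draws monocytes through CCR2, and CX3CL1, a chemokine on a membrane-anchored stalk, draws cells with CX3CR1, monocytes among them. CXCL16 is also membrane-anchored and binds CXCR6 on T cells, CCL20 binds CCR6 on immature dendritic cells and T cells, and CCL28 is a mucosal chemokine that binds CCR10 and CCR3. Epithelial and carcinoma cells produce the ELR chemokines when NF-kB is activated, for example by IL1 or TNF.

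The ELR genes lie together on chromosome 4 and share a promoter element, which is shown here because the 4 of them that were tested had the highest log2 fold changes of the members. CXCL5, the fifth, had no reads and is shown as part of the cluster. On GRCh37 (the same coordinates as hg19), IL8 lies at 74606236 to 74609433 and CXCL1 at 74735110 to 74737025, both on the plus strand. CXCL5 (74861359 to 74864394), CXCL3 (74902306 to 74904524) and CXCL2 (74962757 to 74964913) follow on the minus strand, all within 358.7 kb. Promoters of 7 of the 10 members were matched in the RefSeq promoter table and located by exact match in GRCh37. The 110 bases before the RefSeq start of each ELR gene follow, 5′ to 3′ on the gene's strand, with the letters GGAATTTCC (the core of an NF-kB, or kappa-B, site) in capitals.
CXCL1, chr4:74735000-74735109: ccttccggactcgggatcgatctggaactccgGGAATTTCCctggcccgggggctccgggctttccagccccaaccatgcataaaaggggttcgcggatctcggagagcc
CXCL2, chr4:74964913-74965022: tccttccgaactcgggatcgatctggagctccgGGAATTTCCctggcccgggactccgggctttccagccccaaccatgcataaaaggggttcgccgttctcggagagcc
CXCL3, chr4:74904407-74904516: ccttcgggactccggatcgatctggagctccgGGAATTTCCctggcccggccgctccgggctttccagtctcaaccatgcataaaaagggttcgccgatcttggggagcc
CXCL5, chr4:74864395-74864504: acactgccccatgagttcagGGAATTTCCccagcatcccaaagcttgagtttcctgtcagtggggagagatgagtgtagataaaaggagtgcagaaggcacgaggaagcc
IL8, chr4:74606176-74606285: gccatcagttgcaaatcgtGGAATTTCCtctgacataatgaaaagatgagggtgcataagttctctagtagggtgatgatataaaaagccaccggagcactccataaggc

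These letters begin 78 bases before the RefSeq start in CXCL1 and CXCL3, 77 in CXCL2, 90 in CXCL5 and 91 in IL8. The gene positions given above are those of GENCODE, whose ends do not always equal the RefSeq starts. The printed CXCL3 window lies inside its GENCODE positions, and the windows of IL8 and CXCL2 overlap theirs in part. Both strands of the 250 bases before each start were searched, and 0.429% of 27303 promoters held GGAATTTCC. The windows of CCL20 and CCL28 did not hold these exact letters, and other forms of a kappa-B site were not searched for. CCL2, CXCL16 and CX3CL1 had no matched promoter and were not searched for any element. Both members that fell with ADP-CM, CCL2 and CXCL16, are thus not covered. An AP-1 element (TGANTCA, found in 6.6% of promoters) lay at 137 to 131 bases before the start of IL8 only. The exact letters TATAAA (in 11.1%) lay near the starts of IL8 and CCL20, and other forms of a TATA box were not searched for. A STAT element (TTCNNNGAA, in 6.78%) was found in CXCL5, where it overlaps the kappa-B letters. These matches describe the sequence and do not show that a factor was bound.

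CXCL1, CXCL2 and CXCL3 are close copies, which bears on how reads could be assigned to each. Their coding parts were identical at 93.46% of aligned bases between CXCL1 and CXCL2, 94.39% between CXCL2 and CXCL3, and 90.65% between CXCL1 and CXCL3. The coding part of IL8 matched CXCL1 at 59.93%. Of all 50-base windows within the exons of the main transcript, 95.1% occurred at a single place of GRCh37 for CXCL1, 90.1% for CXCL2, 95.1% for CXCL3. All windows of IL8, CCL2 and CCL20 did so. Reads from the shared windows cannot be assigned by exact match, and reads without a unique alignment were left out of the counts. The counts of CXCL1, CXCL2 and CXCL3 may therefore be too low, most so for CXCL2, and mismatches could add to the error. CXCL16 (chromosome 17, 4636828 to 4643223, minus strand) had 95.2% unique windows, and 7.4% of its exonic bases lay opposite exons of MED11 or ZMYND15 on the other strand.

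All 4 tested neutrophil attractants rose with ADP-CM, and the tested monocyte attractant, CCL2, fell. Among all 7 tested members, 5 rose and 2 fell past the limit used throughout, a p of 0.01 from the quasi-likelihood test of edgeR, adjusted by Benjamini-Hochberg over 12663 genes. DESeq2 raised 3 of the 5. Over all tested genes 13.5% rose and 13% fell by the same rule. With a fold change over 1.5 also required, the study's limit, 4 members rose and 1 fell, against 1.14% of all tested genes in each direction. For all 7 the control libraries lay wholly apart from the ADP-CM libraries, as they did for 45.5% of all tested genes. The median log2 fold change was 0.83 over the 4 tested ELR genes and 0.71 over the 7 members, beside -0.0023 over all tested genes. Values below are CPM, read counts scaled to the size of the library after TMM normalization, and fold changes are ADP-CM over control. In bulk RNA, a change in the number of cells that express a gene and a change in RNA per cell cannot be told apart.

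CXCL1, a main neutrophil attractant of epithelia, had 922, 980 and 1012 reads in the controls, in replicate order, and 1739, 1778 and 1680 with ADP-CM. Every ADP-CM library was above every control library, with mean levels of 58.0 ± 1.18 CPM in control and 94.8 ± 3.02 CPM in ADP-CM (SD of 3 libraries each). The rise was 1.63-fold, or 0.71 ± 0.038 (SE) on the log2 scale (edgeR, adjusted p = 9.85e-25). CXCL2, its close copy, had 944, 974 and 1015 reads in control and 1838, 1964 and 1844 in ADP-CM. Its level went from 58.4 ± 0.859 to 103 ± 3.64 CPM (SD of 3 libraries each), 0.82 ± 0.037 on the log2 scale (edgeR, adjusted p = 3.08e-28). CXCL1 and CXCL2 were thus equally abundant in control by CPM, and both rose with spreads within groups far smaller than the shift between them.

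CXCL3, the third of the near-identical genes, was much rarer. It had 31, 25 and 38 reads in control and 65, 67 and 53 in ADP-CM, or 1.87 ± 0.372 and 3.38 ± 0.429 CPM (SD of 3 libraries each). The log2 fold change of CXCL3 was 0.85 ± 0.195 (SE; edgeR, adjusted p = 0.000336). Its groups did not overlap, but with DESeq2 its adjusted p was 0.0112 and its call was lost. CXCL5 had no read in any of the 6 libraries. A count of 0 allows up to 3 reads, which is 0.163 to 0.185 CPM in these libraries, for counting error only.

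IL8, the best known neutrophil attractant, had the highest log2 fold change of the members. It had 48, 54 and 36 reads in control and 98, 117 and 140 in ADP-CM, all ADP-CM libraries lying above all controls. Mean levels were 2.75 ± 0.574 and 6.47 ± 1.10 CPM (SD of 3 libraries each), a 2.35-fold rise of 1.23 ± 0.16 (SE) on the log2 scale (edgeR, adjusted p = 2.06e-09). Among the 12663 tested genes its log2 fold change ranked 19 from the top, that of CXCL3 79, that of CXCL2 88 and that of CXCL1 152. With any single library removed, the log2 fold change of IL8 lay between 1.07 and 1.36 and those of CXCL1 and CXCL2 between 0.69 and 0.84.

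**Figure D1:**
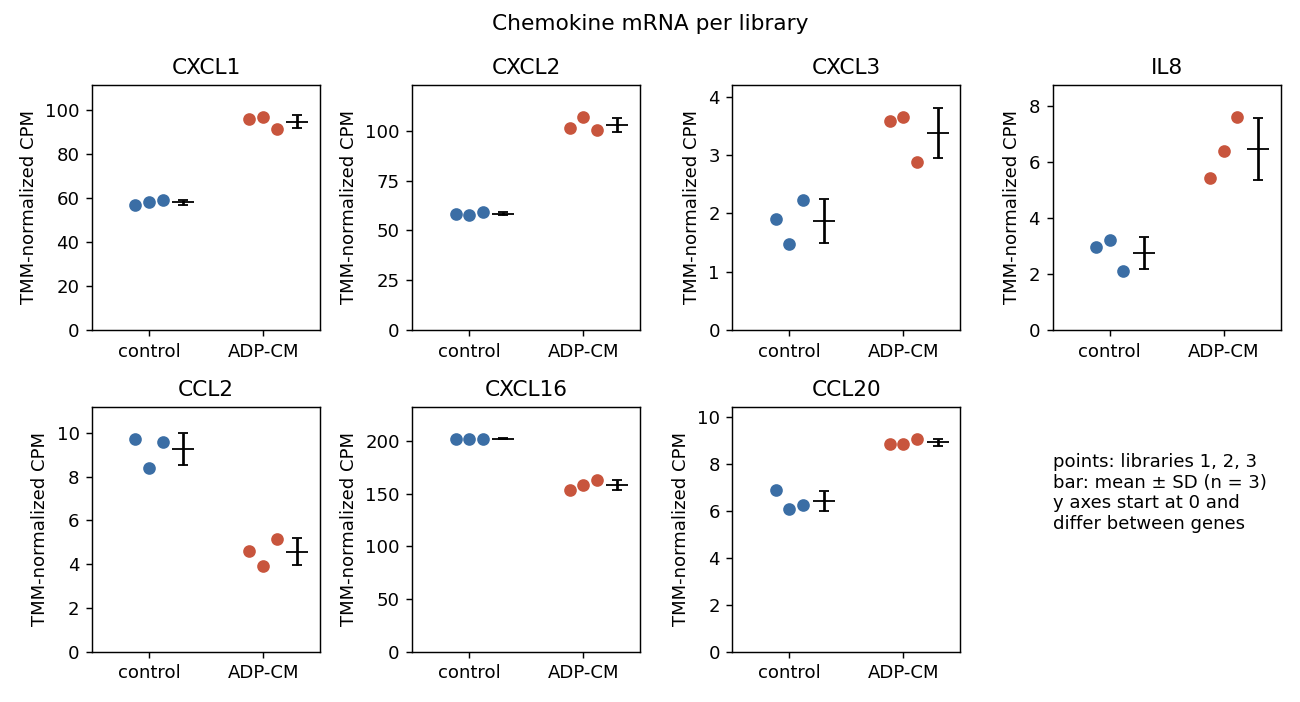
TMM-normalized CPM of the 7 tested chemokine genes in each library (points; control blue, ADP-CM red), with the mean and SD of 3 libraries as a bar; every y axis starts at 0. CXCL1, CXCL2, CXCL3, IL8 and CCL20 are higher in all ADP-CM libraries, and CCL2 and CXCL16 are lower in all of them.

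CCL2, the monocyte attractant, moved the other way. It had 158, 142 and 164 reads in control and 83, 72 and 95 in ADP-CM. Each ADP-CM library was below each control library, with 9.25 ± 0.729 CPM in control and 4.56 ± 0.620 CPM in ADP-CM (SD of 3 libraries each). Its level in control was 2.03 times that in ADP-CM, a log2 fold change of -1.02 ± 0.12 (SE; edgeR, adjusted p = 2.8e-10), rank 37 from the bottom of all tested genes. CCL2 lies at 32582293 to 32584227 on chromosome 17, and its log2 fold change stayed between -1.12 and -0.92 when single libraries were left out. CX3CL1, the other monocyte attractant of the set (chromosome 16, 57406389 to 57418956), had 1 read in control replicate 1 and none elsewhere, so no change of CX3CL1 was detectable at this depth.

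Of the members with other targets, CCL20 rose and CXCL16 fell. CCL20 (chromosome 2, 228670455 to 228682280) had 112, 103 and 107 reads in control and 160, 162 and 167 in ADP-CM, which did not overlap. The rise of CCL20 from 6.42 ± 0.426 to 8.92 ± 0.141 CPM (SD of 3 libraries each) was 1.39-fold, 0.47 ± 0.11 (SE) on the log2 scale (edgeR, adjusted p = 0.000399), short of the fold limit. With DESeq2 the adjusted p of CCL20 was 0.0118, so its call was lost. CXCL16 was the most abundant member by CPM in both groups, with 3279, 3415 and 3446 reads in control and 2777, 2909 and 2996 in ADP-CM. Its level was 202 ± 0.385 CPM in control and 158 ± 4.76 CPM in ADP-CM (SD of 3 libraries each), a log2 fold change of -0.35 ± 0.027 (SE; edgeR, adjusted p = 5.58e-17). CCL28 (chromosome 5, 43376747 to 43412493) had 5, 8 and 5 reads in control and 4, 9 and 2 in ADP-CM, too few to be tested. Its groups overlapped, and the ratio of ADP-CM to control was 0.763, with an exact 95% counting interval of 0.358 to 1.6.

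**Figure D2:**
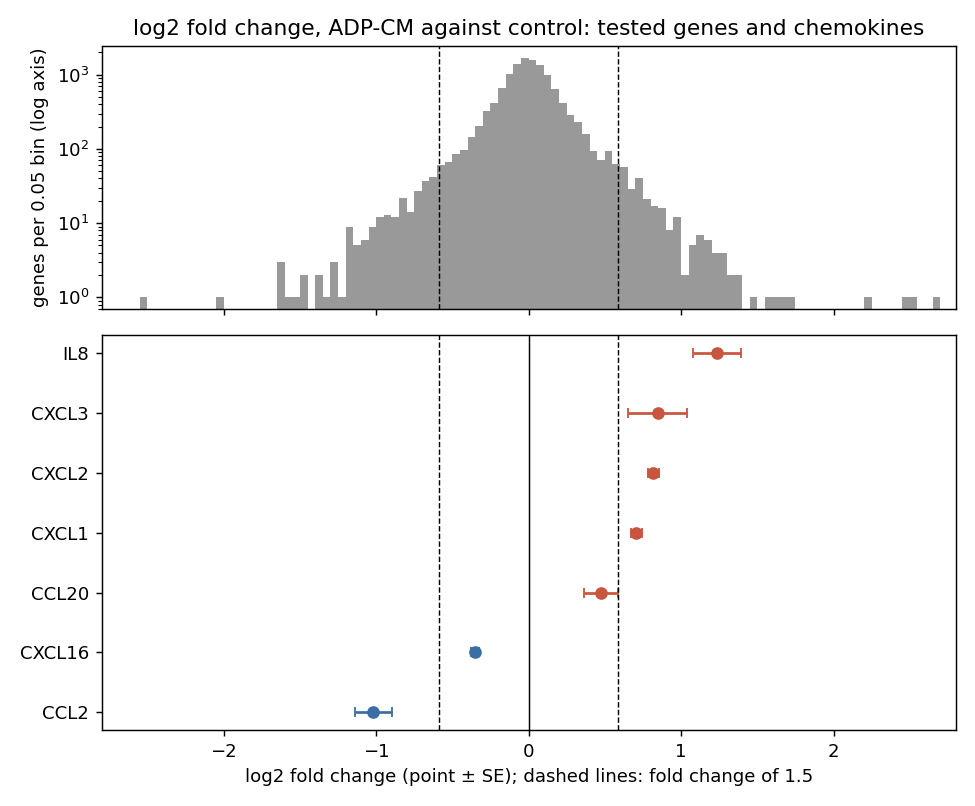
Above, the log2 fold changes of all 12663 tested genes in bins of 0.05 (log count axis); below, those of the 7 tested chemokine genes (point, with SE as a bar; red higher and blue lower in ADP-CM), with dashed lines at a fold change of 1.5. IL8, CXCL3, CXCL2 and CXCL1 lie to the right of the upper line and CCL2 to the left of the lower one, while CCL20 and CXCL16 lie between them.

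The members differed widely in level. Per kilobase of exon (RPKM, on the GENCODE main transcript), CXCL16 stood first in control at 86.9 ± 0.166, followed by CXCL2 at 52.4 ± 0.770 and CXCL1 at 49.4 ± 1.00 (SD of 3 libraries each). CCL2 at 12.5 ± 0.983 RPKM, CCL20 at 7.70 ± 0.511, CXCL3 at 1.74 ± 0.346 and IL8 at 1.68 ± 0.350 came next in control, and CCL28 stood at 0.115 ± 0.0321. In that order only CXCL3 and IL8 overlapped between neighbours of the 7 tested genes. In ADP-CM the order by RPKM was CXCL2 (92.3 ± 3.26), CXCL1 (80.7 ± 2.57), CXCL16 (68.1 ± 2.05), CCL20 (10.7 ± 0.169), CCL2 (6.15 ± 0.836), IL8 (3.94 ± 0.671) and CXCL3 (3.14 ± 0.399). CXCL2 and CXCL1 had thus passed CXCL16, and CCL20 had passed CCL2, in all 3 ADP-CM libraries, while IL8 and CXCL3 still overlapped. These levels rest on the full exon lengths, with windows shared between genes not taken out, and the isoforms present in the cells are unknown.

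**Figure D3:**
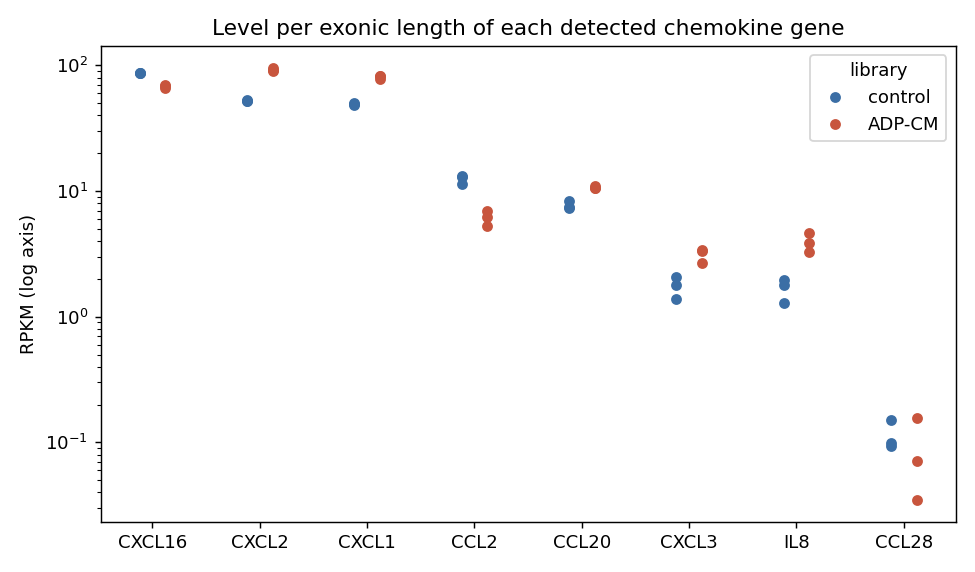
RPKM (log axis) of the 8 members with more than a single read, in the 3 control (blue) and 3 ADP-CM libraries (red), ordered by their control mean. CXCL16, CXCL2 and CXCL1 lie well above the rest in both groups, and the positions of CCL2 and CCL20 are exchanged between groups.

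Added up per library, the mRNA of the ELR genes gained on that of CCL2, which, with the single read of CX3CL1, stands here for the monocyte attractants. The 5 ELR genes summed to 104.2, 104.5 and 107 RPKM in the controls and to 179.5, 185.9 and 175 RPKM with ADP-CM, 1.71 times the control mean. CCL2 and CX3CL1 summed to 13.2, 11.4 and 12.9 RPKM in control and to 6.19, 5.30 and 6.97 RPKM in ADP-CM, 0.493 of the control mean. The ratio of the sums was 8.46 ± 0.668 in control and 29.7 ± 5.03 in ADP-CM (SD of 3 libraries each), and its lowest ADP-CM value, 25.1, was above its highest control value, 9.21. CCL5, which also attracts monocytes and was raised in edgeR's test, was not in this sum. With CCL5 added, an alternative chosen after seeing the data, the monocyte sum in ADP-CM was 0.657 of the control mean in RPKM and 0.752 in CPM, and the ratio of the sums was 7.26 ± 0.473 and 18.9 ± 1.69 (SD of 3 libraries each). No test was run on these sums, whose members were chosen with results known. CXCL1 and CXCL2 made up nearly all of the ELR sum in RPKM. CXCL1 supplied 47.0% ± 0.440 of it in control and 44.8% ± 0.661 in ADP-CM, CXCL2 49.8% ± 0.295 and 51.3% ± 0.481, and IL8 1.60% ± 0.352 and 2.19% ± 0.415 (SD of 3 libraries each). IL8, with the highest fold change, was therefore a small part of this mRNA.

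**Figure D4:**
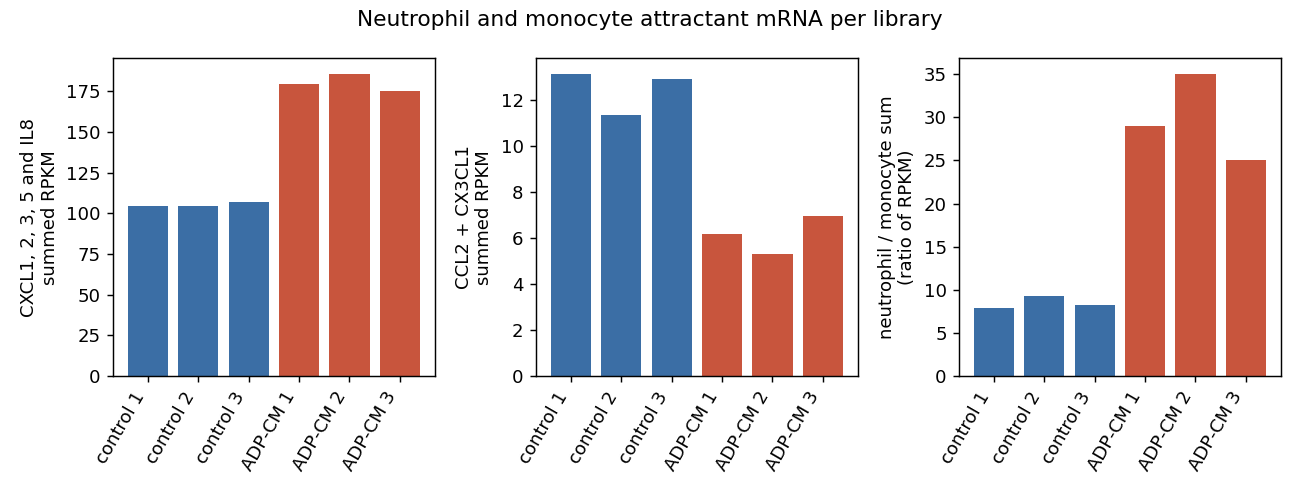
Summed RPKM per library of the neutrophil attractants (CXCL1, CXCL2, CXCL3, CXCL5 and IL8; left) and of the monocyte attractants (CCL2 and CX3CL1; middle), and their ratio (right), with control in blue and ADP-CM in red; bars start at 0. The left and right bars of ADP-CM are all taller than those of control, and the middle bars are all shorter.

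Whether the members changed by the same factor was asked of the log2 ratio of each pair of genes in each library, over 21 pairs of tested members. The ratio separated the groups without overlap for 16 pairs, but 3 libraries against 3 cannot give an exact permutation p below 0.1 (two-sided), which is 0.131 after Benjamini-Hochberg adjustment over the pairs. Among the 6 pairs of ELR genes 2 were separate. The log2 ratio of CXCL1 to CXCL2 went from -0.0098 ± 0.022 in control to -0.12 ± 0.034 in ADP-CM (SD of 3 libraries each), a difference of -0.11 ± 0.024 (SE; exact permutation p = 0.1), so CXCL2 gained slightly on CXCL1 in every ADP-CM library. The ratio of CXCL1 to IL8 fell by 0.53 ± 0.26 (SE; exact permutation p = 0.1). The ratios of CXCL3 to CXCL1 and to CXCL2 overlapped between groups, with differences smaller than their SE. For CXCL2 against CCL2, the most abundant neutrophil attractant in ADP-CM and the monocyte attractant, the difference was 1.84 ± 0.16 (SE; exact permutation p = 0.1).

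The remaining chemokine ligands were nearly silent in these cells. Of 39 other ligands listed, 28 had no read in any library, and CCL5 was the only one tested. CCL5, which attracts T cells and monocytes, had 29, 46 and 60 reads in control and 88, 86 and 68 in ADP-CM. Its log2 fold change was 0.71 ± 0.18 (SE; edgeR, adjusted p = 0.000796), but without control replicate 1 it was 0.50 with an adjusted p of 0.0292 from edgeR, and DESeq2 gave 0.0204. In CCL5 73.3% of exon windows were unique in GRCh37. CXCL12 had 4 to 10 reads per library in control and 5 to 10 in ADP-CM. Neither the ELR gene CXCL6 nor PPBP and PF4, which lie in the same cluster, had a read.

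The signalling receptors for most members were at or near the limit of detection, while the decoy receptor CCBP2 was not. CXCR1 and CXCR2, the receptors of the ELR chemokines, CCR2 of CCL2 and CXCR6 of CXCL16 had no read in any library. CXCR4 had at most 4 reads and CCR6, the receptor of CCL20, at most 3. Of 28 receptors and binding proteins 5 were tested, of which 0 rose and 2 fell in edgeR's test at an adjusted p under 0.01. Over all tested genes 13.5% rose and 13% fell. At an unadjusted p under 0.05 0 receptors rose as well, and DESeq2 gave 0. Both that fell were syndecans, heparan sulfate proteoglycans that hold chemokines at the cell surface. SDC4 went from 235 ± 2.71 to 173 ± 2.12 CPM (SD of 3 libraries each), -0.44 on the log2 scale (edgeR, adjusted p = 1.6e-22), and SDC1 had a log2 fold change of -0.13 (edgeR, adjusted p = 7.4e-07). CCBP2 (now ACKR2), a decoy receptor that takes up CC chemokines such as CCL2, had 41.4 ± 1.32 and 38.1 ± 0.737 CPM (SD of 3 libraries each) and was not past the limit (edgeR, adjusted p = 0.0513). CXCR7 (now ACKR3) and GPR1 were also not past it, and GPR35, with at most 11 reads, was not tested.

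A list of 48 genes held signals and transcription factors that act on ELR chemokine genes together with inhibitors of the same pathways, such as NFKBIA and TNFAIP3, so its counts and median mix both. Of these genes 43 were tested, and 10 rose and 7 fell (edgeR, adjusted p under 0.01; DESeq2 lowered 4), against the 13.5% and 13% of all genes. Their median log2 fold change was -0.0055. IL1A, an IL1 receptor agonist, rose from 21.1 ± 1.69 to 50.0 ± 2.42 CPM (SD of 3 libraries each), 1.25 ± 0.057 (SE) on the log2 scale (edgeR, adjusted p = 3.52e-28). NFKBIZ, a nuclear cofactor of NF-kB, had a log2 fold change of 0.45 and went from 54.0 ± 0.875 to 73.8 ± 1.10 CPM (SD of 3 libraries each; edgeR, adjusted p = 5.53e-15). CEBPD, a C/EBP factor, and IRAK1, a kinase of the IL1 receptor pathway, rose by 0.38 and 0.19 on the log2 scale. BIRC3 (0.22), TNFAIP3 (0.28) and FOSL1 (0.16) also rose. FOSL2, an AP-1 member, fell, with a log2 fold change of -0.23, as did the NF-kB subunit RELB (-0.26) and ATF3 (-0.54). CEBPB, JUN and REL rose and IKBKB, NFKBIA and NFKBIE fell as well, but all of these lost the call with DESeq2. The largest fall of the list was that of EGR1, with a log2 fold change of -1.07 (edgeR, adjusted p = 0.000176). EGR1 was rare, at 2.52 ± 0.623 CPM in control and 1.20 ± 0.231 CPM in ADP-CM (SD of 3 libraries each). TNF itself was at 11.3 ± 1.11 and 10.7 ± 0.773 CPM (SD of 3 libraries each), not past the limit (edgeR, adjusted p = 0.523), and RELA and NFKB1 had log2 fold changes of 0.056 and 0.033 that were not past it either. IL1B had at most 12 reads in any library and was not tested.

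The promoter letters shown above were set beside the fold changes of every gene that carries them. Of 117 promoters with GGAATTTCC, 59 were matched to a gene of the count tables. Besides CXCL1, CXCL2, CXCL3 and IL8, 35 such genes were tested, of which 6 rose (17.1%) and 6 fell (17.1%), near the 13.5% and 13% of all tested genes, with a median log2 fold change of -0.015. Those that rose were NFKBIZ, MAP3K8, REL, ICAM1, DUSP6 and SEC24A, all by 0.45 or less on the log2 scale. Those that fell were WNT10A (-1.15), ZNF442 (-0.91), DHRS7B, OAS3, OPTN and NFKBIA. The names were taken from these counts after they were made. With DESeq2 NFKBIZ kept its call (adjusted p = 3.29e-15), while REL (adjusted p = 0.0648) and NFKBIA (adjusted p = 0.0192) lost theirs. The falls of WNT10A and ZNF442 were larger than the rises of CXCL1, CXCL2 and CXCL3 but smaller than that of IL8. ZNF442 was rare, at 2.2 CPM in control and 1.1 CPM in ADP-CM. The part of these letters in the changes was not tested.

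The ELR transcripts also carry many AUUUA pentamers, the core of AU-rich elements that mark short-lived mRNAs. In the 3′ untranslated part of the main transcript, CXCL2 had 10 (14.0 per kb), CXCL3 7 (10.4 per kb), CXCL1 6 (7.77 per kb) and IL8 9 (7.19 per kb), beside a median of 1.67 per kb over 18049 genes. CCL20 had 3 (6.34 per kb). Both members that fell had 1 each, at 2.66 per kb in CCL2 and 1.03 per kb in CXCL16. CCL5, no member but also raised in edgeR's test, had 0. The untested CXCL5, CCL28 and CX3CL1 had 5.51, 2.63 and 0.994 per kb. Of 15 tested factors that bind or control such mRNAs, 2 rose and 2 fell (edgeR, adjusted p under 0.01), close to the 13.5% and 13% of all tested genes, and DESeq2 called 1 and 0. ZC3H12A, or Regnase-1, a nuclease that cuts inflammatory mRNAs, rose from 36.8 ± 2.32 to 55.0 ± 1.96 CPM (SD of 3 libraries each), 0.58 on the log2 scale (edgeR, adjusted p = 1.09e-15). ZFP36, or tristetraprolin, which brings AU-rich mRNAs to decay, had a log2 fold change of -0.20 (edgeR, adjusted p = 0.00582) and was past the limit neither with DESeq2 nor without control replicate 2, control replicate 3, ADP-CM replicate 1 or ADP-CM replicate 2 (adjusted p up to 0.0287). RC3H1 (-0.20) fell and TIAL1 (0.10) rose in the same test, and both lost the call with DESeq2. Without control replicate 2 the adjusted p of RC3H1 was 0.0117, and that of TIAL1 reached 0.0510 when single libraries were left out. The part of these pentamers and factors in the chemokine changes was not tested.

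CXCL16 and CX3CL1 are released from the membrane by the sheddases ADAM10 and ADAM17. ADAM10 was at 343 ± 4.65 CPM in control and 329 ± 4.03 CPM in ADP-CM, and ADAM17 at 81.5 ± 1.19 and 84.9 ± 2.16 CPM (SD of 3 libraries each). Neither was past the limit (edgeR, adjusted p = 0.0398 and 0.197). Of 12 tested genes for sheddases, proteases and heparan sulfate synthesis 2 rose and 4 fell (edgeR, adjusted p under 0.01), beside 13.5% and 13% of all tested genes. The heparan sulfate polymerases EXT1 and EXT2 and the heparanase HPSE fell, with log2 fold changes of -0.16, -0.27 and -0.25. CTSB and HS2ST1 had log2 fold changes of 0.061 and 0.11, and DESeq2 called CTSB alone. CTSB lost its call without control replicate 3 or ADP-CM replicate 1 (edgeR, adjusted p up to 0.0111), and HS2ST1 without control replicate 1 or 2 or ADP-CM replicate 1 or 2 (up to 0.0259).

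A list of 20 further genes held secreted factors that act on leukocytes and PTGS2, a prostaglandin-forming enzyme. Of its 11 tested genes 5 rose and 0 fell (edgeR, adjusted p under 0.01), beside 13.5% and 13% of all tested genes. At an unadjusted p under 0.05 1 was lower, PTGS2, and DESeq2 lowered 0. CSF1, the growth factor of monocytes and macrophages, rose from 208 ± 7.61 to 228 ± 4.57 CPM (SD of 3 libraries each), 0.13 on the log2 scale (edgeR, adjusted p = 3.96e-05), so it went opposite to CCL2. VEGFA, KITLG and IL18 rose by 0.39, 0.26 and 0.59 on the log2 scale, and LIF by 0.33 (adjusted p = 0.0111 from edgeR without ADP-CM replicate 1 and 0.0118 with DESeq2). CSF2, which activates neutrophils and macrophages, had 3 to 10 reads per library and was not tested.

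The libraries were checked for other cell types, since leukocytes and stromal cells also make chemokines. All 10 neutrophil markers were near or at 0: 9 had no read, and CSF3R had at most 2 per library. Of 10 lymphocyte markers 6 had no read, and their summed level was 0.702 to 0.829 CPM in control and 0.545 to 1.16 CPM in ADP-CM. The monocyte markers summed to 8.36 to 9.43 and 10.9 to 13.1 CPM. Most of that was CD68, which rose by 0.53 on the log2 scale (edgeR, adjusted p = 3.72e-05), while CD14 had at most 5 reads and FCGR1A, FCGR3A and AIF1 had none. The adipocyte markers ADIPOQ, LEP and CIDEA had no read, and the list summed to 9.99 to 11.8 and 8.34 to 10.3 CPM. Endothelial markers summed to 75.8 to 80.6 and 67.9 to 76.6 CPM, mostly CDH5, with KDR, TIE1 and EMCN at 0. Of the 3 tested, 1 fell (edgeR, adjusted p under 0.01), beside 13% of all tested genes. It was the rare ESAM, with a log2 fold change of -0.89 (edgeR, adjusted p = 0.007), and its call was lost with DESeq2 (adjusted p = 0.0759). CDH5 and ERG were not past the limit. The summed level of the 10 fibroblast markers was 68.7 to 75.3 CPM in control and 93.7 to 96.8 CPM in ADP-CM, nearly all of it COL1A1 and FAP. Of the 3 tested, FAP and COL1A1 rose by 1.12 and 0.30 on the log2 scale, and COL3A1, with a log2 fold change of -0.010, was not past the limit (edgeR, adjusted p = 0.981). The other 7 were not tested. THY1 had no read, and COL1A2, PDGFRA, DCN and POSTN each had 7 reads or fewer in all libraries together. The summed level of the 10 epithelial markers was lower in ADP-CM, at 5660 to 5820 CPM in control and 4960 to 5070 CPM in ADP-CM. Of the 9 tested, 5 fell and 2 rose (edgeR, adjusted p under 0.01), beside 13% and 13.5% of all tested genes. KRT19 had a log2 fold change of -0.85. Those that rose were PAX8 (0.28) and the rare MUC1 (1.27, or 0.76 with ADP-CM replicate 3 left out, when edgeR gave an adjusted p of 0.0417). CLDN3 was too rare to be tested, and EPCAM, at 200 ± 4.38 and 201 ± 5.50 CPM (SD of 3 libraries each), was not past the limit. The part of these marker genes in the chemokine results was not tested.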

How the data were processed

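RNA-seq of 3 control and 3 ADP-CM libraries of RL95-2 cells was analysed. The authors aligned reads to hg19 with TopHat2 and deposited raw read counts per RefSeq gene from HTSeq, with no normalization. Program versions and strand setting were not given in the sources used here. Reads on no gene (10.2 to 11.6% of counted reads), ambiguous (0.709 to 0.721%) and without a unique alignment (20.5 to 20.8%) were left out of library sizes and tests. Groups and replicate numbers came from sample titles. Counts of genes kept by filterByExpr (12663 of 23228) were normalized by TMM and compared with edgeR 4.0.16 (quasi-likelihood, Benjamini-Hochberg) in R 4.3.3. The common biological coefficient of variation was 1.67%. SE is the log2 fold change divided by the root of F. Limits were an adjusted p of 0.01 and, from the study, a fold change of 1.5. DESeq2 1.42.0, other scaling and filters, an adjusted p of 0.05, a replicate term and leaving out each library were alternatives. Every replicate pair differed by more than sampling noise. Scripts were tested on simulated data. The members and gene lists were chosen with earlier results of these data known. Named were all members, other ligands and receptors with at least 10 reads in a library, and at most 5 genes of each further list by p-value, besides genes a sentence turns on. Positions, exon lengths and windows came from GENCODE 44 on GRCh37, and promoters from RefSeq (GRCh38.p14).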

Additional observations from a re-analysis of the deposited data

How the results depend on the processing

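Whether the replicate numbers pair the libraries was not settled. Deviations from group means correlated only weakly between same-numbered libraries, by 0.0576, 0.0235 and 0.12. Each control correlated best with the ADP-CM library of its number. ADP-CM replicate 2, however, correlated better with control replicate 1 (0.0548) than with control replicate 2. With the replicate block 5 members rose and 2 fell as before, and all genes gave 1786 raised and 1716 lowered. CXCL1, CXCL2, IL8, CCL2 and CXCL16 kept their direction and side of the limit in all 13 alternatives run, and CXCL3 and CCL20 in 12. Only DESeq2 moved the count of members that rose, from 5 to 3. It also gave 0 other ligands raised, 4 inducers lowered, 1 mRNA decay factor raised and 0 lowered, 1 processing enzyme raised, and over all genes 1027 raised (84 over 1.5-fold) and 951 lowered (94 over 1.5-fold), against 1707 (144) and 1650 (144) in edgeR. The cause was not tested. With CCL5 in the sum, an alternative chosen after seeing the data, the monocyte attractant sum in CPM was 0.752 of control in place of 0.492. Leaving out single libraries gave 5 members raised and 2 lowered each time, 0 to 1 other ligand raised, 1 to 2 decay factors raised and 0 to 2 lowered, and 0 to 2 processing enzymes raised. Depth limits CXCL5, CX3CL1 and CCL28, and CXCL3 and IL8 have under 150 reads in every library.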
